A study of Homo sapiens with 4 samples.

Results

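The genes described here are MLL, the histone methyltransferase gene broken by the translocation t(4;11), and 9 genes whose products work with it or are fused to it: AFF1, AFF3, AFF4, MLLT1, MLLT3, MLLT10, DOT1L, MEN1 and PSIP1. They were chosen by symbol, and all 10 were found among the 23368 entries of the deposited count table. The RNA came from 4 established human lines of acute lymphoblastic leukemia (ALL) with a precursor-B phenotype, 1 library per line. RS4;11 and SEM carry t(4;11) and are called the translocation lines below, and NALM6 and REH lack it. The labels name no treatment, and all lines grew in serum-containing RPMI medium. With 2 lines per group (n = 2), the translocation and every other difference between the leukemias cannot be told apart.

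MLL (now named KMT2A) encodes a large nuclear protein that methylates lysine 4 of histone H3 at active promoters. Its first part binds menin, the product of MEN1, and through menin the chromatin reader LEDGF, the product of PSIP1. In t(4;11) this first part is joined to the last part of AFF1. AFF1, AFF4, MLLT1 and MLLT3 belong to the super elongation complex, which releases paused RNA polymerase. MLLT10, MLLT1 and MLLT3 also bind DOT1L, the methyltransferase for lysine 79 of histone H3. Fusions of MLL are known to carry these factors to MLL target genes, and menin and DOT1L are drug targets in MLL-rearranged leukemia.

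The libraries held between 33620574 counts (SEM) and 84212986 counts (REH). Levels below are CPM, each count scaled by the column sum of its line. Where a pair of values is given with the translocation, RS4;11 precedes SEM, and in a pair without it NALM6 precedes REH. The labelled cell type was checked against markers. All 9 B-precursor markers had counts in every line. At least 1 CPM was reached by all 9 in RS4;11 and NALM6, and by 8 in SEM and REH. VPREB1 had 0.226 CPM in REH. The summed level of the 9 was 2140 and 1211 CPM with the translocation, against 2530 and 2634 CPM without it. Of these 9, 4 were lower in both translocation lines and 0 higher, where 28.3% of all genes tested were lower and 19.0% higher. The 4 were BLNK, CD22, CD79B and IGLL1. The authors' deposited tables called CD79B, a subunit of the B-cell receptor (DESeq adjusted p 0.0252, Cuffdiff q 0.00418), and BLNK, its adaptor (Cuffdiff q 0.0449). BLNK had 6.82 and 0.178 CPM with the translocation, against 89.5 and 259.7 CPM without it. The T-cell genes CD3D, CD3E and CD3G had 0 counts in all 4 lines. CD4 had 0 and 0.0297 CPM with the translocation, against 22.0 and 2.23 CPM without it, and NCAM1 had 4.67 CPM in SEM and 0 counts in the other lines. In sum, T and NK cell markers reached between 0.0578 CPM (RS4;11) and 22.0 CPM (NALM6), and monocyte and granulocyte markers between 8.61 CPM (NALM6) and 39.9 CPM (REH). In REH this was mostly MPO, at 34.2 CPM. In SEM it was mostly CSF1R, which had 10.0 and 33.3 CPM with the translocation, against 0.0892 and 5.27 CPM without it. Stromal and epithelial markers reached between 7.31 CPM (NALM6) and 104 CPM (SEM), mostly PDGFRB. The part of these cell types in the results was not tested.

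MLL and AFF1, the genes joined by the translocation, were abundant in every line, and the lines with and without the translocation overlapped. MLL had 455 (RS4;11) and 265 CPM (SEM), against 325 (NALM6) and 334 CPM (REH). RS4;11 was thus the highest line and SEM the lowest, with the lines without the translocation close together between them. In bulk RNA, fewer cells with a transcript and less of it per cell cannot be told apart. AFF1 showed the same order, at 485 (RS4;11) and 219 CPM (SEM), against 311 (NALM6) and 330.1 CPM (REH). The distance between the translocation lines was the main spread in both genes. MLL was 1.72-fold higher in RS4;11 than in SEM (95% interval 1.68 to 1.76), while NALM6 and REH differed 0.973-fold (0.954 to 0.993). For AFF1 the ratio of RS4;11 to SEM was 2.21 (2.15 to 2.27), and that of NALM6 to REH was 0.941 (0.922 to 0.960). These intervals are exact binomial ones and cover counting error only. The log2 fold change of t(4;11) over no t(4;11) was small against its standard error for either gene. It was 0.23 (SE 0.33) for MLL and 0.24 (SE 0.45) for AFF1, with an adjusted p of 0.806 and 0.861 by edgeR's quasi-likelihood test over all 13844 genes tested. Without RS4;11 the signs turned, to -0.22 for MLL and -0.45 for AFF1.

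The counts cannot show which allele was transcribed. The MLL promoter drives the intact MLL gene and, on the derivative chromosome 11, the first part of the fusion gene MLL-AFF1. The AFF1 promoter likewise serves intact AFF1 and the reciprocal fusion. A read in the first part of MLL can thus come from the intact or the fused gene, and the same holds for the last part of AFF1. In GENCODE 29, MLL shares 5599 exon bases with a same-strand entry, AP001267.5. The deposited counts hold no entry of that symbol, and the annotation used in counting is not known. The upstream sequences are shown because they are the promoters that a fused allele shares with its intact copy. They are the 250 bases before the start site in RefSeq (GRCh38.p14), with CG dinucleotides in capitals; AFF1 has 2 start sites there. MLL lies on the plus strand (chr11:118436242-118436491) and AFF1 also on the plus strand (chr4:86934761-86935010 for the first start and chr4:87007021-87007270 for the second).
MLL: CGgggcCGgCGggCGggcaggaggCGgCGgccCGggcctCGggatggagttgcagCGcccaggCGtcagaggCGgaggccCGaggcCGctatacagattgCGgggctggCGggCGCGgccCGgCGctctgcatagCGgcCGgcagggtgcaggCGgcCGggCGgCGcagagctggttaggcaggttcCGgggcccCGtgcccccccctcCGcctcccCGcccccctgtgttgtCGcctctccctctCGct
AFF1 first start: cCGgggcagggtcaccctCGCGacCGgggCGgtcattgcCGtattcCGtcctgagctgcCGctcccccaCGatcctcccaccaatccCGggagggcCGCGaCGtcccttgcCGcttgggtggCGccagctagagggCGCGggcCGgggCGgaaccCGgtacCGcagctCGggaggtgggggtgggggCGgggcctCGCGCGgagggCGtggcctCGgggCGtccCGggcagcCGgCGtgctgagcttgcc
AFF1 second start: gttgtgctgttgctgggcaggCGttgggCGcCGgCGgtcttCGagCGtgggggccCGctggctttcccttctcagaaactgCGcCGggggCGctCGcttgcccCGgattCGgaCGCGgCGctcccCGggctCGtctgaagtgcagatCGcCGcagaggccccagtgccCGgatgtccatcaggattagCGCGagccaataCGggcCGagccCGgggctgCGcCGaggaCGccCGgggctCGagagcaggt
The MLL window held 31 CG dinucleotides and the AFF1 windows 32 and 31. The median over 35116 RefSeq windows of the same length was 11, and 10.9% of them held 31 or more. The motif TATAAA was in none of these windows on either strand, and 10.7% of all windows held it. Which AFF1 start was used in these lines was not measured.

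The 3 genes whose 4-line pattern lay nearest to that of MLL were CAT, STAU2 and GTF2I, and those nearest to AFF1 were SIPA1, PRKACB and ATG4D. Likeness was the Euclidean distance of log2(CPM + 1), centred over the 4 lines, among 10552 other genes with a mean of at least 5 CPM. CAT, the gene for catalase, had 145 (RS4;11) and 83.9 CPM (SEM), against 105 (NALM6) and 109.5 CPM (REH), at a distance of 0.04 from MLL. AFF1 ranked 77th in likeness to MLL (distance 0.26), and MLL ranked 23rd in likeness to AFF1. The next member after AFF1 was AFF4, at rank 2433. Over only 4 lines such likeness is a description of these libraries.

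**Figure D1:**
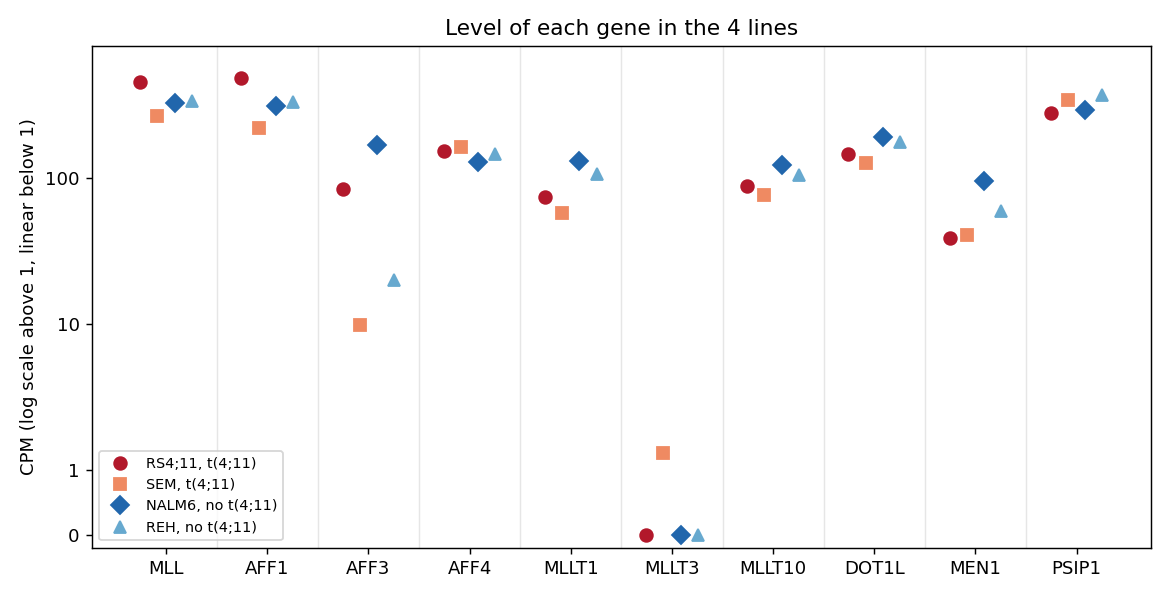
CPM (log scale above 1 and linear below it) of the 10 genes in RS4;11 and SEM (red, left) and NALM6 and REH (blue, right), with 1 point per line. MLL and AFF1 run from RS4;11 at the top to SEM at the bottom, MLLT1 and MEN1 are lower in both translocation lines, and MLLT3 is at 0 in every line but SEM.

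The AF4-family genes AFF3 and AFF4 differed in how far they varied. AFF4, the main scaffold of the super elongation complex, had 153 and 164 CPM with the translocation, against 128 and 146 CPM without it. It had the narrowest range of the 9 genes tested, with the highest line 1.28-fold above the lowest, and only 10.5% of genes with a count in every line had a narrower one. Both translocation lines were higher, with a log2 fold change of 0.31 and an SE of 0.16 (edgeR adjusted p = 0.530). AFF3, a relative of AFF1 known for high levels in lymphoid cells, had 83.1 (RS4;11) and 9.82 CPM (SEM), against 167 (NALM6) and 20.0 CPM (REH). Each group thus held 1 high and 1 low line. In hg19, AFF3 lies on chromosome 2 (100163716 to 100759037) and AFF4 on chromosome 5 (132211071 to 132299354). AFF3 was 8.47-fold higher in RS4;11 than in SEM (95% counting interval 7.57 to 9.50) and 8.34-fold higher in NALM6 than in REH (7.91 to 8.80). Its range over the lines was 16.97-fold, wider than in 88.5% of genes. Its log2 fold change was -0.88 (SE 1.49, edgeR adjusted p = 0.844). The value was -3.15 without RS4;11 and 1.33 without NALM6. The genes with the most similar pattern to AFF3 were PHACTR1, LAX1 and CPM, a carboxypeptidase gene. PHACTR1, which encodes an actin regulator, had 46.9 and 7.38 CPM with the translocation, against 89.1 and 13.9 CPM without it.

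Per length, the shares of AFF1, AFF3 and AFF4 among these genes differed between the lines. CPM was divided by the longest coding transcript in GENCODE 29, so that levels of different genes could be roughly compared. The comparison is approximate, because the annotation used in counting and the transcripts present are not known. Of the summed level of AFF1, AFF3 and AFF4 on this scale, AFF1 took 67.9% in RS4;11 and 56.3% in SEM, against 52.2% in NALM6 and 66.998% in REH. AFF4 took 21.0% and 41.3% in RS4;11 and SEM, against 21.1% and 29.1% in NALM6 and REH. AFF3 took 11.1% and 2.40% with the translocation, against 26.7% and 3.86% without it. Among these genes AFF1 was the largest share in all 4 lines, and AFF3 exceeded AFF4 in NALM6. AFF2, the remaining AF4-family gene, was left out of these shares, which matters most in REH. It had 0.174 and 0.922 CPM with the translocation, against 0.0223 and 67.4 CPM without it. Its log2 fold change of -5.87 had a large SE, 3.39, and turned to 4.52 without REH.

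MLLT1 and MLLT3 encode the paralogous proteins ENL and AF9, whose YEATS domains read acylated histones, and they differed widely in level. MLLT1 had 73.9 (RS4;11) and 57.1 CPM (SEM), against 130.3 (NALM6) and 106 CPM (REH). Both translocation lines were below both other lines. MLLT1 lies on chromosome 19 (6210392 to 6279959, hg19). Its mean was 65.5 ± 11.9 CPM in the translocation lines and 118 ± 17.04 CPM in the lines without the translocation (SD, n = 2 each). The log2 fold change was -0.75 (SE 0.24). Its unadjusted p was 0.0380 by edgeR's quasi-likelihood test and its adjusted p was 0.399, so the difference did not pass. Without each line in turn it lay between -0.96 and -0.55. The 10 tested genes nearest to it on chromosome 19 had a median log2 fold change of -0.26, and 4 of them were lower in both translocation lines and 0 higher. Over all genes tested 28.3% were lower and 19.0% higher.

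MLLT3 had 44 counts in SEM (1.31 CPM) and 0 counts in RS4;11, against 0 counts in both NALM6 and REH. A count of 0 allows up to 0.0578 CPM in RS4;11, 0.0669 CPM in NALM6 and 0.0356 CPM in REH, taking 3 counts per library as the limit. The measured SEM level was 22.6-fold this limit in RS4;11, 19.6-fold in NALM6 and 36.7-fold in REH. These ratios leave out the counting error of the 44 counts in SEM, so they are not strict lower bounds. MLLT3 did not pass the filter on low counts and has no test. The authors' deposited Cuffdiff table gave it an FPKM of 0.204 in the t(4;11) group and listed it at 0 in the control group. Its p there was 0.124 and its q 0.705.

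MLLT3 lies on chromosome 9 (20344968 to 20622514, hg19), at one end of a stretch that was nearly without counts in the same 3 lines. From MLLT3 to the next gene counted in all 4 lines, C9orf82, the table holds 36 entries. In SEM 15 of them had a count, 11718 in sum. RS4;11 had 1 count in sum, against 4 in NALM6 and 0 in REH. MTAP, a methionine salvage enzyme that most cells express, had 4045 counts in SEM (120.3 CPM) and 0 in RS4;11, against 0 in both NALM6 and REH. CDKN2A, which encodes the tumor suppressors p16 and ARF, had 3303 counts in SEM and 0 in RS4;11, against 2 in NALM6 and 0 in REH. KLHL9, a ubiquitin ligase adaptor, had 2392 counts in SEM and 0 in RS4;11, against 2 in NALM6 and 0 in REH. KIAA1797 (now FOCAD), the first counted gene beyond MLLT3, had 1009 counts in SEM and 1 in RS4;11, against 0 in both NALM6 and REH. On the other side of MLLT3, the ribosomal protein gene RPS6 had 3089 (RS4;11) and 2400.1 CPM (SEM), against 1910.5 (NALM6) and 2724 CPM (REH). C9orf82 had 37.3 and 36.1 CPM with the translocation, against 41.7 and 28.1 CPM without it. The stretch was singled out after its values were seen. DNA copy number was not measured here, and its part in the level of MLLT3 was not tested. In SEM, MLLT3 was below MLLT1 per length, at 0.193 against 12.7 CPM per kilobase. The upstream sequence of MLLT3 (RefSeq, GRCh38.p14, minus strand, chr9:20622500-20622749) is shown because the gene had counts in SEM alone; CG is in capitals.
MLLT3: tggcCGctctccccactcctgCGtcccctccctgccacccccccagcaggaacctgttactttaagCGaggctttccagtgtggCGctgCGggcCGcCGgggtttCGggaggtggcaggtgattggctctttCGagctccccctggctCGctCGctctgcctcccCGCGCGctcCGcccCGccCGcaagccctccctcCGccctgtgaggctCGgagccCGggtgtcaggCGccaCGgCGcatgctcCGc
This window held 24 CG dinucleotides, and 23.7% of all windows held as many or more.

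**Figure D2:**
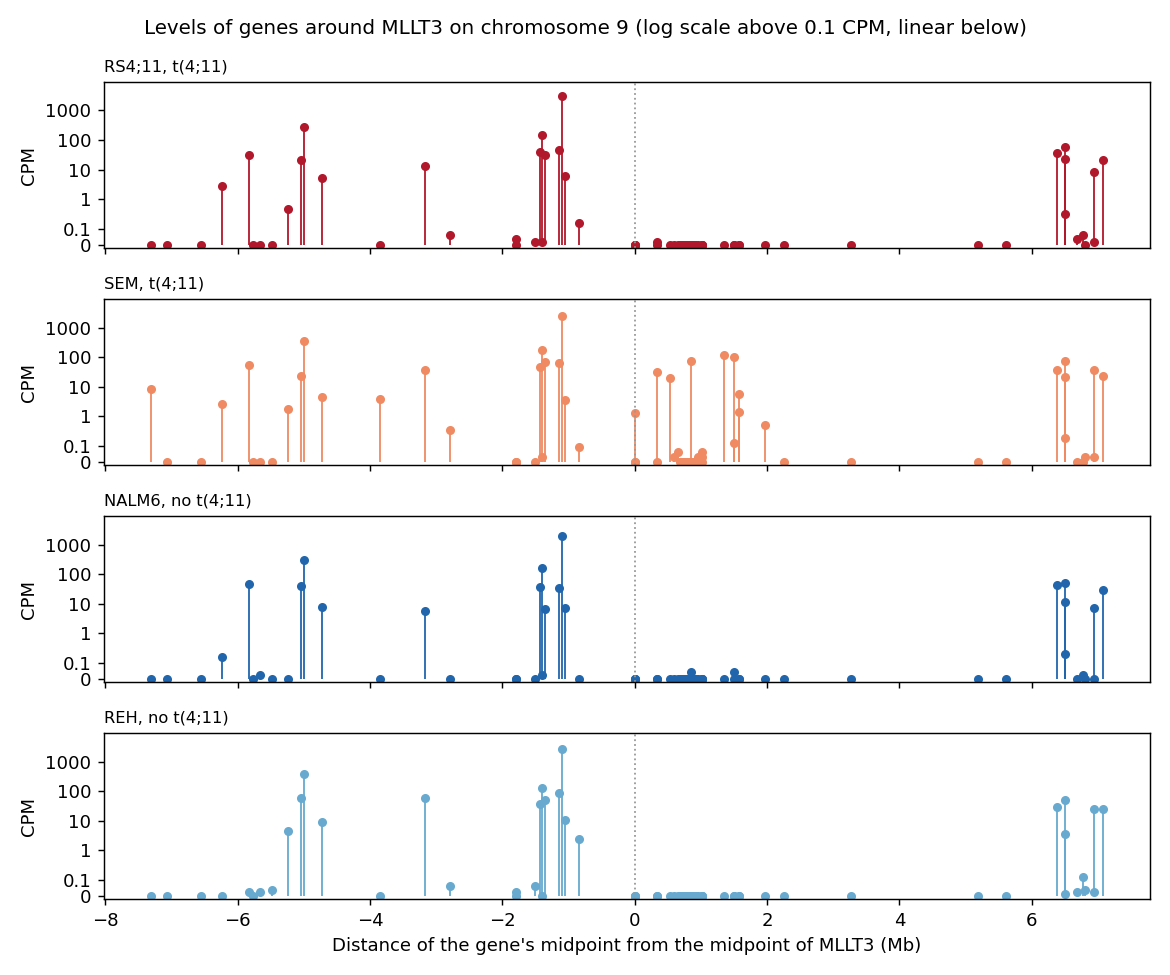
CPM (log scale above 0.1 and linear below it) of every entry whose midpoint lies within 7.5 Mb of MLLT3 on chromosome 9, by distance from MLLT3 (dotted line), with 1 panel per line and RS4;11 and SEM above NALM6 and REH. To the right of MLLT3 the points of RS4;11, NALM6 and REH stay at or near 0 as far as C9orf82, while SEM has points at 120.3 CPM (MTAP) and 98.2 CPM (CDKN2A).

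MLLT10 and DOT1L, which encode AF10 and its partner methyltransferase, were modestly lower in both translocation lines. DOT1L had 146 and 126 CPM with the translocation, against 189 and 176 CPM without it. MLLT10 had 87.3 and 76.8 CPM with the translocation, against 122 and 104 CPM without it. The groups did not overlap in either gene. In hg19, DOT1L lies on chromosome 19 (2164148 to 2232577) and MLLT10 on chromosome 10 (21823101 to 22032559). The log2 fold change was -0.32 (SE 0.17) for DOT1L and -0.36 (SE 0.19) for MLLT10, with an edgeR adjusted p of 0.531 and 0.534. The genes kept nearly the same proportion in every line. Per length, the ratio of DOT1L to MLLT10 was 1.15 in RS4;11 and 1.13 in SEM, against 1.07 in NALM6 and 1.16 in REH. In GENCODE 29, DOT1L shares 529 exon bases with PLEKHJ1 on the opposite strand, and the library kit does not mark strand. PLEKHJ1 itself had between 1274 counts (SEM) and 3791 counts (REH), below DOT1L in each line.

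MEN1, which encodes menin, was lower in both translocation lines, and these lay close together. It had 38.8 (RS4;11) and 40.9 CPM (SEM), against 94.6 (NALM6) and 59.6 CPM (REH). Its mean was 39.8 ± 1.46 CPM in the translocation lines and 77.1 ± 24.8 CPM in the lines without the translocation (SD, n = 2 each). The log2 fold change was -0.85 (SE 0.30). Its unadjusted p was 0.0495 by edgeR's quasi-likelihood test and its adjusted p 0.414, so it did not pass either. The value was -0.48 without NALM6 and -1.15 without REH. MEN1 lies on chromosome 11 (64570986 to 64578766, hg19), among the genes described next. Its 10 nearest tested genes spanned 328 kb and had a median log2 fold change of -1.48, with 6 lower and 0 higher in both translocation lines, where 28.3% of all genes tested were lower and 19.0% higher. The nearest, MAP4K2, a kinase gene, had 21.7 and 28.6 CPM with the translocation, against 73.2 and 79.9 CPM without it. EHD1, an endosomal recycling factor, had 18.1 and 30.8 CPM with the translocation, against 118 and 49.9 CPM without it. SF1, a splicing factor gene in the same stretch, overlapped between groups, with 478 and 424 CPM with the translocation, against 446 and 319.5 CPM without it. NRXN2, a neurexin gene, had 38.5 and 0.119 CPM with the translocation, against 14.1 and 115 CPM without it. PYGM, the muscle glycogen phosphorylase gene, had 1.12 and 0.476 CPM with the translocation, against 5.08 and 1.96 CPM without it. The part of the neighbourhood in the level of MEN1 was not tested.

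PSIP1, which encodes LEDGF, was the most abundant of the 10 genes per length in every line. It had 276 and 340.4 CPM with the translocation, against 292 and 372 CPM without it. The groups overlapped, and the log2 fold change was -0.01 with an SE of 0.22 (edgeR adjusted p = 0.994). Each group had 1 line lower by a like amount: RS4;11 stood at 0.812 of SEM (95% counting interval 0.792 to 0.832), and NALM6 at 0.785 of REH (0.769 to 0.802). PSIP1 lies on chromosome 9 (15464065 to 15511003, hg19) and shares 140 exon bases with SNAPC3 on the opposite strand. PTPRD, a receptor phosphatase gene on the same arm, had 0.0964 and 2.89 CPM with the translocation, against 0 and 31.6 CPM without it. ZDHHC21, a palmitoyltransferase gene and a nearer neighbour of PSIP1, had 30.4 and 52.1 CPM with the translocation, against 44.4 and 0.0237 CPM without it.

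**Figure D3:**
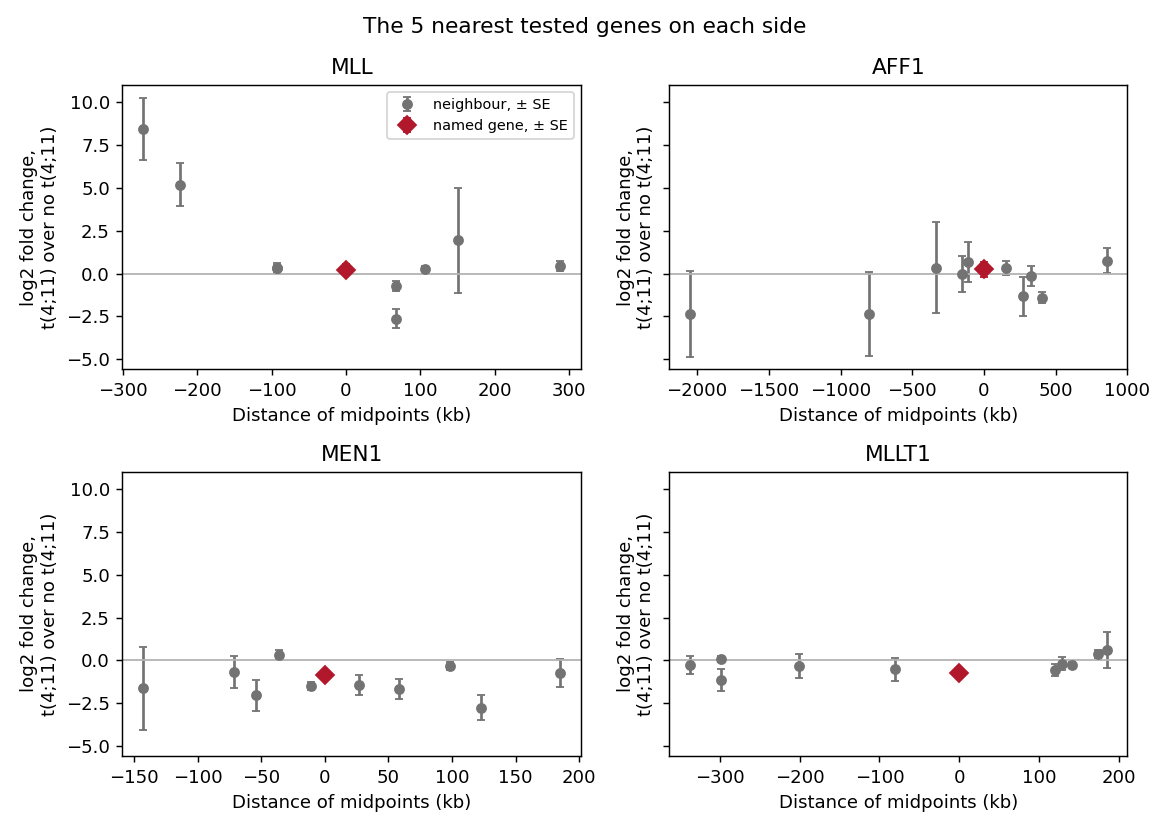
Log2 fold change (t(4;11) over no t(4;11), ± SE, edgeR) of MLL, AFF1, MEN1 and MLLT1 (red) and of the 5 nearest tested genes on each side (grey), by distance of midpoints in kb. Around MEN1 the neighbours have a median of -1.48, around MLL 0.40, around AFF1 -0.08 and around MLLT1 -0.26; MPZL3 near MLL, with 0 counts in both NALM6 and REH, is not drawn.

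Around MLL on chromosome 11 (118307205 to 118397539, hg19), 6 of the 10 nearest tested genes were higher and 2 lower in both translocation lines, where 19.0% of all genes tested were higher and 28.3% lower. Of the higher genes, MPZL3 and MPZL2 were under 1 CPM in every line. The lower ones were IFT46 and TMEM25. TMEM25 had 1.33 and 1.73 CPM with the translocation, against 8.74 and 11.6 CPM without it. AMICA1, a junction adhesion gene, had 5.995 and 8.09 CPM with the translocation, against 0.0446 and 0 CPM without it. PHLDB1 had 0.0964 (RS4;11) and 9.76 CPM (SEM), against 0 (NALM6) and 2.67 CPM (REH). ARCN1, a coatomer subunit, had 171 and 188 CPM with the translocation, against 167 and 149 CPM without it. Around AFF1 on chromosome 4 (87856154 to 88062206, hg19), 1 of the 10 neighbours was higher and 1 lower, below the same shares. Around AFF3, LONRF2 had 5.49 and 4.19 CPM with the translocation, against 0.0446 and 0 CPM without it. NPAS2, a circadian factor gene on the same side, had 5.11 and 1.70 CPM with the translocation, against 0.0669 and 0.0831 CPM without it. Near MLLT10, LOC100130992 had 5.22 and 2.17 CPM with the translocation, against 0 and 0.0237 CPM without it. Among the 10 neighbours of AFF1, PTPN13, a tyrosine phosphatase gene, varied within each group, with 6.46 and 48.3 CPM with the translocation, against 0.0223 and 45.8 CPM without it.

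Counted over the 9 genes tested, 1 was higher and 4 lower in both translocation lines than in both others. Over all 13844 genes tested 47.3% had groups that did not overlap (19.0% higher and 28.3% lower), so a count of 5 of 9 is near this background. These shares use CPM by column sums. The edgeR fold changes use TMM factors, 0.954 and 0.976 with the translocation, against 1.04 and 1.03 without it. In 5 of 9 the difference between groups, as a mean of log2 CPM, exceeded the differences within both groups, against 33.5% of genes with a count in every line. These 5 were AFF4, MLLT1, MLLT10, DOT1L and MEN1. With an adjusted p under 0.05, edgeR by quasi-likelihood called 0 of the 9, against 0.0% of all genes. At an unadjusted p under 0.05 it marked MLLT1 and MEN1, both lower, against 5.87% of all genes lower, 6.18% higher and 12.0% in either direction. DESeq2 also called 0 of the 9, with the same 2 at an unadjusted p under 0.05, while it called 9.74% of all genes. The edgeR exact test called 0 and had 0 at an unadjusted p under 0.05, with 2.95% of all genes called. Of the 10, 0 passed in the authors' deposited DESeq table, against 1.56% of its genes (0.934% higher and 0.63% lower), and each had an adjusted p of 1. The smallest unadjusted p among them in that authors' deposited table was 0.115 (MEN1). The authors' deposited Cuffdiff table called 0 of the 10, against 2.34% of its tested genes. Its smallest q among them was 0.677 (MEN1). For a single gene the 2 lines against 2 allow an exact permutation p no smaller than 0.333.

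**Figure D4:**
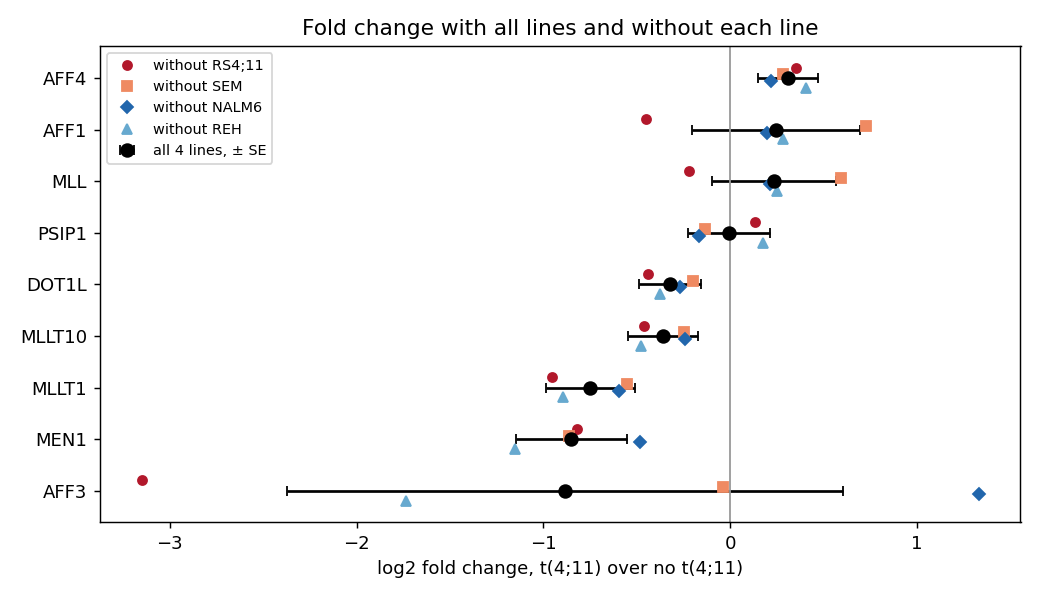
Log2 fold change (t(4;11) over no t(4;11)) of the 9 tested genes with all lines (black, ± SE, edgeR) and without each line in turn (colours). AFF4 stays above 0 and DOT1L, MLLT10, MLLT1 and MEN1 below 0 in every case, while MLL and AFF1 change sign without RS4;11 and AFF3 ranges from -3.15 to 1.33.

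Per length the order of the genes differed between lines mainly in its middle. PSIP1 was first and AFF1 second in all 4 lines, and MLLT3 was last. On this scale PSIP1 had 81.5 and 100.4 CPM per kilobase in RS4;11 and SEM, against 86.1 and 110 CPM per kilobase in NALM6 and REH. MLL ranked 3rd in RS4;11 and 5th in SEM, against 7th in NALM6 and 6th in REH. MEN1 ranked 8th and 7th in RS4;11 and SEM, against 3rd and 7th in NALM6 and REH. The ratio of MLL to MEN1 per length was 2.23 in RS4;11 and 1.23 in SEM, against 0.653 in NALM6 and 1.06 in REH. The groups did not overlap in this ratio, which was chosen after the levels were seen. In the authors' deposited Cuffdiff table, FPKM gave 22.1 for MLL and 15.1 for MEN1 in the t(4;11) group, against 18.8 for MLL and 27.5 for MEN1 in the control group.

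The wider complexes around these proteins were described with 8 lists, 82 genes in all when each was counted once, and every gene was tested. Their median log2 fold change was 0.03, against -0.02 over all genes tested. Of the 82, 15 were higher and 21 lower in both translocation lines than in both others, against the 19.0% and 28.3% of all genes. The quasi-likelihood test of edgeR called 0 of the 82 and marked 1 higher and 4 lower below an unadjusted p of 0.05, against 6.18% higher and 5.87% lower over all genes. DESeq2 called 3 of the 82 (TET1, MAML2 and YEATS2), against 9.74% of all genes. The edgeR exact test called 1 (MAML2), against 2.95% of all genes.

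Over 11 genes of the core of MLL-type methyltransferases and its partners the median log2 fold change was 0.02. The range was from -0.48 (DPY30) to 0.20 (ASH2L). Partners such as CREBBP, ASH1L and TASP1 are not part of the core. WDR5, the scaffold that all MLL-type enzymes share, had 110 and 111 CPM with the translocation, against 108 and 107 CPM without it. The sister enzymes gave a median of 0.02 over 5 genes, from -0.13 (MLL2) to 0.33 (SETD1B). In the super elongation complex the median was 0.11 over 8 genes, with 1 higher and 2 lower in both translocation lines. Over all genes tested 19.0% were higher and 28.3% lower. CDK9, its kinase, had 155 and 93.5 CPM with the translocation, against 149 and 263 CPM without it. ELL3, an elongation factor, had 50.9 (RS4;11) and 14.5 CPM (SEM), against 10.4 (NALM6) and 11.6 CPM (REH). Its log2 fold change, 1.68 with an SE of 0.72 and an edgeR adjusted p of 0.472, was 0.50 without RS4;11. ELL2, singled out after its values were seen, had 20.1 and 18.1 CPM with the translocation, against 0 and 29.6 CPM without it.

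Among factors that control the kinase P-TEFb the median was 0.26 over 7 genes. In both translocation lines 3 were higher (HEXIM2, LARP7 and MEPCE) and 1 lower, where 19.0% of all genes tested were higher and 28.3% lower. HEXIM2 had 7.09 and 6.04 CPM with the translocation, against 4.01 and 4.81 CPM without it. The lower gene was its paralog HEXIM1, likewise an inhibitor of P-TEFb, with 27.4 and 34.9 CPM with the translocation, against 65.8 and 47.4 CPM without it. Its log2 fold change was -0.76 with an SE of 0.28, at an edgeR adjusted p of 0.431. Genes of the DOT1L complex and of H2B ubiquitination had a median of 0.31 over 7 genes. MLLT6, the paralog of MLLT10, had 332 and 288 CPM with the translocation, against 414 and 364 CPM without it. In the PAF1 complex, which links MLL to elongating polymerase, the median was -0.03 over 6 genes. There 1 was higher and 4 lower in both translocation lines, against 19.0% and 28.3% of all genes tested. The higher one was CDC73, with 81.8 and 87.4 CPM with the translocation, against 60.0 and 40.1 CPM without it. For CDC73 the log2 fold change was 0.86 with an SE of 0.27, at an edgeR unadjusted p of 0.0361 and an adjusted p of 0.393.

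Of 33 other genes known as fusion partners of MLL, 6 were higher and 6 lower in both translocation lines. Over all genes tested these shares were 19.0% and 28.3%. The median log2 fold change of the 33 was 0.08. MAML2, a coactivator of NOTCH, had 2.60 and 2.56 CPM with the translocation, against 37.1 and 17.9 CPM without it. MAML2 thus had a log2 fold change of -3.31 with an SE of 0.55, at an edgeR adjusted p of 0.310. TET1, a methylcytosine oxidase, had 3.03 and 0.744 CPM with the translocation, against 17.5 and 30.4 CPM without it. For TET1 the value was -3.55 with an SE of 0.94, at an edgeR adjusted p of 0.370. It was the only gene of these lists called in the authors' deposited DESeq table (adjusted p = 0.00395), and it was lower. ARHGEF12, a RhoA exchange factor, had 217 and 264 CPM with the translocation, against 6.56 and 139 CPM without it. Its log2 fold change, 1.82 with an SE of 1.45 and an edgeR adjusted p of 0.659, was 0.89 without NALM6 and 5.29 without REH. MYO1F, an unconventional myosin, had 49.4 and 104 CPM with the translocation, against 43.4 and 4.54 CPM without it, and its log2 fold change was 1.79 with an SE of 1.20 (edgeR adjusted p = 0.606). It was 4.18 without NALM6 and 0.92 without REH. Another list held the YEATS and AF4 relatives AFF2, YEATS2 and YEATS4, and also MLLT6, PHF6, BRPF1, HDGFRP2 and HDGF. Over these 8 genes the median was -0.18. In both translocation lines 3 of them were lower (YEATS2, MLLT6 and HDGFRP2) and 0 higher, against 28.3% and 19.0% of all genes tested. YEATS2, a histone reader of the ATAC complex, had 133 and 129 CPM with the translocation, against 240.3 and 269 CPM without it. Its log2 fold change was -0.86 (SE 0.16, edgeR adjusted p = 0.310). HDGFRP2, a relative of PSIP1, had 58.5 and 48.1 CPM with the translocation, against 86.0 and 88.6 CPM without it.

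**Figure D5:**
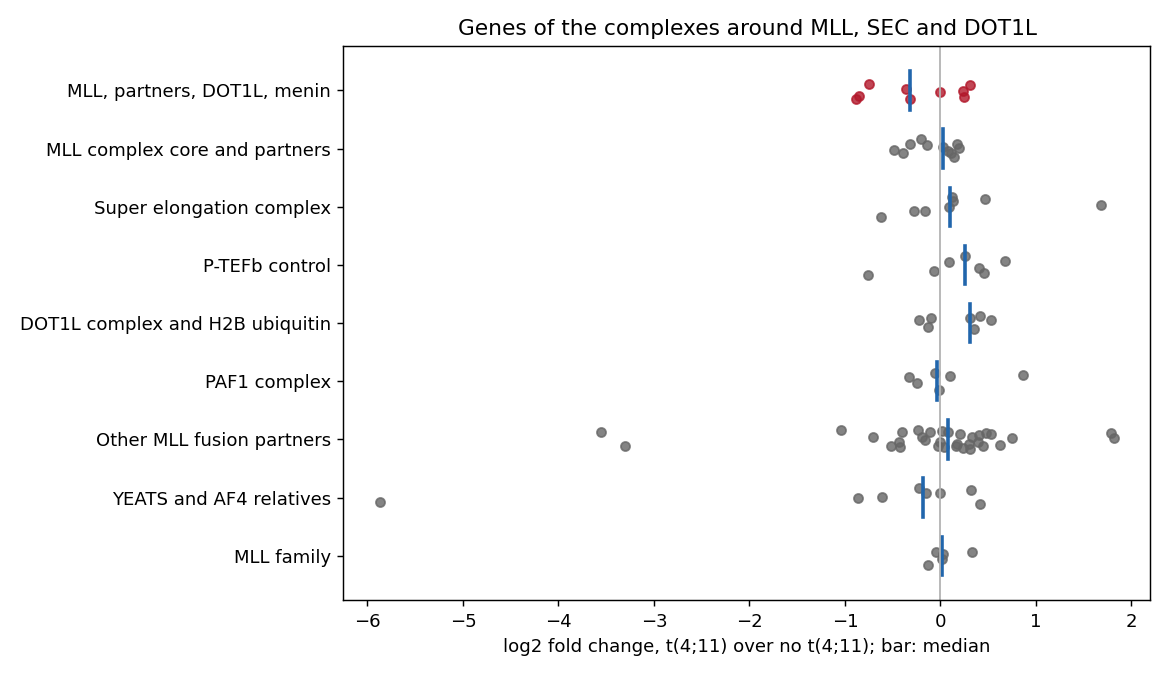
Log2 fold change (t(4;11) over no t(4;11), edgeR) of each tested gene of MLL and its partners (red, 9 genes) and of 8 lists of related complexes (grey), with the median as a bar; vertical scatter within a row has no meaning. Most genes lie within 1 of 0, and the farthest points are AFF2 at -5.87 (4.52 without REH), TET1 at -3.55 and MAML2 at -3.31.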

How the data were processed

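RNA of 4 cell lines was analysed from 2 deposited tables. TRI Reagent served for extraction and a TruSeq RNA kit for the libraries, per the labels' protocols. That kit type does not mark strand. The submitters' processing notes list TopHat2 2.0.4, CASAVA 1.8.2, Cuffdiff, DESeq, HTSeq and TopHat without their settings, and hg19 as the build. Which gene annotation was used is not given in the sources used here. Raw HTSeq counts for each line stand in the first table, per the file headers. Beside them are DESeq normalized counts made by the authors, a signal not used for levels here. Its deposited fold change is a ratio of control to t(4;11), and its deposited p-values come from DESeq. The second table holds, per the file headers, the authors' FPKM of each group from Cuffdiff, log2 of control over t(4;11), p-values and q-values. Both deposited fold changes were inverted to give t(4;11) over control. Cuffdiff starts were converted to count from 1.

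Counts were tested with edgeR 4.0.16 (R 4.3.3): TMM scaling, filterByExpr, then the two-sided quasi-likelihood test (glmQLFit, glmQLFTest), adjusted by Benjamini-Hochberg over the 13844 genes tested at 0.05 (2 residual degrees of freedom). Each SE was taken as the absolute log2 fold change over the root of F. CPM used column sums. DESeq2 1.42.0, the edgeR exact test, other scalings and filters and leaving out each line were alternatives. Each line is 1 library (n = 2 lines per group), so p-values measure the spread between lines. Intervals and the limit of 3 counts express counting error alone: PCR reads lack molecular identifiers, so they are not independent molecules. Column sums ran to 51872617 (RS4;11), 33620574 (SEM), 44849858 (NALM6) and 84212986 (REH). Lengths and exon overlaps came from GENCODE 29 (GRCh38), matched by symbol with MLL as KMT2A; promoters came from RefSeq (GRCh38.p14), which matched 9 of 10 genes. The test was also run on simulated counts. These varied less between lines than the real counts and held larger changes than those of the members. That run therefore does not show how the test performs on the members here. Figures were drawn with matplotlib 3.10.9.

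The members and lists were chosen with earlier results of these data known. All 10 members are named. List genes are named where the groups did not overlap, at least 1 line reached 1 CPM and the absolute log2 fold change was at least 1 (up to 4 each way per list), or where a deposited table called them. Neighbours are named where 1 line was under 1 CPM and another reached 5 CPM; the other list genes, neighbours and ratios given were picked after their values were seen.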

Additional observations from a re-analysis of the deposited data

How the results depend on the processing

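No tested gene of the 9 was called under any setting run: RLE or column-sum scaling, no filter, DESeq2, the edgeR exact test, an adjusted p under 0.10, leaving out each line, or either deposited table. Of 63 log2 fold changes recomputed with another scaling, filter, test or deposited table, 63 kept their sign. Of 36 recomputed without 1 line, 5 turned: MLL to -0.22 and AFF1 to -0.45 without RS4;11, AFF3 to 1.33 without NALM6, and PSIP1 to 0.13 without RS4;11 and 0.18 without REH. The lone line of a group is then assumed to vary like the others. The range over the 4 fits without a line was -0.22 to 0.59 for MLL, -0.45 to 0.72 for AFF1, -3.15 to 1.33 for AFF3 and -0.17 to 0.18 for PSIP1. The number of genes called among all was 0 in the main test, 5 with no filter, 1349 with DESeq2, 408 with the edgeR exact test and 7 at an adjusted p under 0.10. It was 0 without each line in turn. The count of 5 genes with groups that do not overlap was 5 under TMM and RLE scaling too. The share over all genes is given for column sums only. No paired analysis was possible because the labels give no replicate numbers.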
